A study of Gallus gallus with 9 samples.

Results

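DLX1, DLX3, DLX5 and DLX6 were followed in explants of chick splanchnic mesoderm cultured with or without BMP4. The members were chosen by gene symbol: all probe sets annotated to these 4 genes, 8 in all, of 13009 genes named on the array. DLX1 had 3 probe sets, named here brightest, middle and dimmest by mean signal only to tell them apart, DLX5 and DLX6 had a brighter and a dimmer one each, and DLX3 had 1. The splanchnic mesoderm dissected here holds progenitors of the anterior heart field, and RNA of such explants was hybridised to 9 Affymetrix chicken arrays, 1 array a sample. Untreated explants were taken at 0 h or after 3, 12 or 24 h on a collagen drop in medium with fetal calf serum and chick embryo extract. Treated explants had human recombinant BMP4 at 200 ng/ml in the same medium for 3, 12 or 24 h. The 12 h samples came as a pair, A and B, in each arm, and each of the other 5 groups is 1 array. The embryo stage and the number of explants pooled per array are not given in the sources used here.

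DLX genes encode homeodomain transcription factors related to Drosophila Distal-less. In vertebrates they lie in linked pairs, such as DLX5 with DLX6 and DLX1 with DLX2, and paired genes are often expressed in overlapping domains through shared enhancers. BMP signaling is known to induce DLX5 and DLX3 in non-neural ectoderm, and DLX5 and DLX6 act downstream of endothelin in the ventral part of the pharyngeal arches. DLX1 is best known from the developing forebrain and the arches, where it acts with DLX2. DLX3 is known from epidermis, its appendages, placenta and bone.

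Signal is the linear MAS5 intensity of a probe set and has no unit. It was tested only within a probe set, since probe sets differ in how brightly they bind. Marker levels and summed signals of lists set probe sets side by side or add them. They are rough descriptions in which bright probe sets weigh most. Differences were tested with limma on log2(signal + 27.79), and ± gives the standard error. Calls were made where the adjusted p, over the 28329 probe sets that passed a filter on dim signal, was under 0.05. The filter kept probe sets brighter than the array's 40th percentile on 2 or more arrays. It passed 6 of the 8 DLX probe sets, and left out that of DLX3 and 1 of DLX5. The 12 h pairs correlated at r = 0.970 untreated and r = 0.972 with BMP4, and nothing says that A and B were separate pools of explants, so the spread behind each p may be technical. The ACTB 3′ to 5′ signal ratio, a sign of RNA integrity, was 3.72 to 5.44 in cultured untreated arrays and 4.26 to 5.67 with BMP4. At 3 h it was 4.51 untreated and 4.96 with BMP4, and at 24 h 3.72 and 5.67. The 12 h arms overlapped, at 5.44 (A) and 3.8 (B) untreated and 5.5 (A) and 4.26 (B) with BMP4. The untreated 24 h array had the lowest ratio and the highest signal of the brightest DLX1, dimmer DLX5, brighter DLX6 and DLX3 probe sets. The part of this ratio in the differences below was not tested. In bulk RNA, fewer cells of a type and less RNA per cell cannot be told apart.

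Some markers of the labelled tissue and of other cell types had high signals, and others of the same lists were dim. ISL1, a factor of heart field progenitors, had signals of 5402 to 11120, and NKX2-5, a cardiac factor, 4049 to 9211. GATA4 lay at 35.7 to 73.4, near the filter's threshold of 46.4 to 46.9, and TBX20 (22.8 to 81.1), TBX1 (36.8 to 224) and FGF10 (13.3 to 188), also of the heart field, were dim on some or most arrays. The epithelial adhesion protein EPCAM had signals of 21048 to 30824 on the 9 arrays, while KRT5 and GRHL3 of the same list had 45.2 to 99.8 and 10.5 to 203. The neural crest factor SOX10 had 254.9 to 2103, while the crest markers FOXD3 and NGFR had 5.28 to 392 and 20.8 to 95.6. Which of these cells carried the DLX RNA was not tested.

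**Figure D1:**
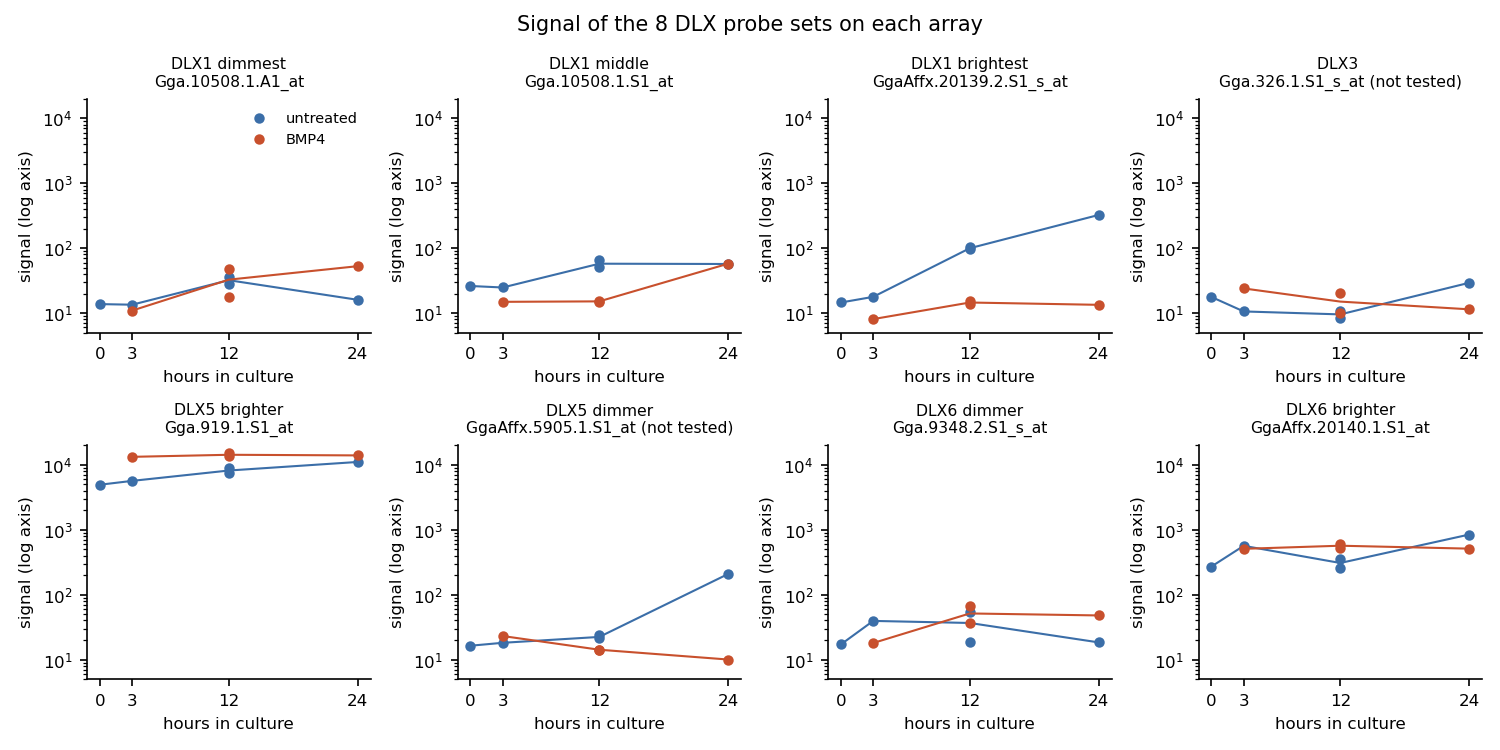
Signal of each DLX probe set (y, log axis) against hours in culture (x) on the 9 arrays, 1 panel a probe set; points are single arrays, and lines join the mean of each time in untreated (blue) and BMP4-treated (red) explants. The brighter DLX5 probe set sits between 4953 and 11110 untreated and between 13328 and 15054 with BMP4, while the brightest DLX1 probe set climbs to 325 in untreated explants and stays at 8.07 to 15.3 with BMP4.

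DLX5 was higher in BMP4-treated explants by 1 of its probe sets. Through the brighter probe set, its signal in untreated explants was 4953 at 0 h, 5679 at 3 h, 7566 (A) and 8832 (B) at 12 h, and 11110 at 24 h. With BMP4 the signal was 13328 at 3 h, 13624 (A) and 15054 (B) at 12 h, and 14022 at 24 h. All 4 BMP4 arrays lay above all 5 untreated arrays, and the arms came closest at 24 h. The probe set lay between the 96.3th and the 99.3th percentile of its array on every array. The 12 h means were 8199 ± 895 (SD, n = 2) untreated and 14339 ± 1012 (SD, n = 2) with BMP4.

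Over 3, 12 and 24 h, DLX5 rose 1.73-fold with BMP4 (log2 0.79 ± 0.12, adjusted p = 0.00558). At 12 h alone the difference was 0.81 ± 0.13 (adjusted p = 0.0223), a 1.75-fold ratio of the mean signals. At 3 h, with 1 array an arm, the log2 difference was 1.23 ± 0.18 and did not pass the test (adjusted p = 0.136), although the signal was 2.35 times that of the untreated array. At 24 h it was 0.335 ± 0.18 (adjusted p = 0.589), with a 95% interval of −0.06 to 0.73. The 12 h call was lost without untreated array A (adjusted p = 0.123) or without BMP4 array B (0.0669), and over all alternatives its adjusted p ran from 5.96e-07 to 0.477. The 3 h difference passed without BMP4 12 h array A (adjusted p = 0.026) or B (0.0262), where the 3 h arrays and so the difference stay the same. The call across times held without any 1 of the 12 h arrays (adjusted p from 0.0131 to 0.0377) and without the 24 h pair (0.00269), and was lost without the 12 h pairs (0.433) or without the variance trend (0.251).

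The DLX5 signal changed with culture time in untreated explants. In untreated explants the signal at 24 h was 2.24 times that at 0 h (log2 1.16 ± 0.18, adjusted p = 0.012) and 1.96 times that at 3 h (0.965 ± 0.18, adjusted p = 0.0348), comparisons added after the values were seen. With BMP4 the signal at 24 h was 1.05 times that at 3 h (0.07 ± 0.18, adjusted p = 0.89, 95% interval −0.33 to 0.47). The single untreated steps gave log2 differences of 0.20 from 0 to 3 h, 0.52 from 3 to 12 h and 0.44 from 12 to 24 h, none past the test. In the order of levels, untreated 0 h and 3 h lay next to each other (0.20 ± 0.18). Among the 3 BMP4 groups the step from 3 to 12 h was 0.104 ± 0.155 and that from 12 to 24 h −0.03 ± 0.155. The BMP4 effect was 0.89 ± 0.25 smaller at 24 h than at 3 h on the log2 scale. That change had an unadjusted p = 0.00535 and an adjusted p = 0.429, so it did not pass the test.

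The dimmer DLX5 probe set showed another pattern. Its signal was 16.3, 18.1, 21.1 (12 h A), 23.5 (12 h B) and 208 in untreated explants from 0 to 24 h, and 23.1, 14.1 (A), 14.3 (B) and 10.0 with BMP4 from 3 to 24 h. Only the untreated 24 h array stood above the 40th percentile of its array, so the probe set was not tested with the others. Fitted without the filter, its BMP4 effect at 24 h was −2.64 (adjusted p = 0.0699), from 1 array against 1. The 2 DLX5 probe sets correlated at r = 0.056 over the 9 arrays.

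DLX6, the genomic neighbour of DLX5, had no called difference between the arms. Through its brighter probe set, the untreated signal was 272 at 0 h, 566 at 3 h, 256 (A) and 360 (B) at 12 h, and 844 at 24 h. With BMP4 it was 509 at 3 h, 523 (A) and 614 (B) at 12 h, and 512 at 24 h. The untreated arrays thus held both the lowest and the highest value, and the BMP4 arrays lay between them, within 1.21-fold of each other. The BMP4 arrays were higher at 12 h, where the arms did not overlap, and lower at 3 h and 24 h.

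None of these DLX6 differences passed the test. The effect across times was 0.21 ± 0.25 (adjusted p = 0.863, 95% interval −0.32 to 0.75). It was −0.15 ± 0.36 at 3 h, 0.84 ± 0.25 at 12 h (adjusted p = 0.27) and −0.69 ± 0.36 at 24 h (adjusted p = 0.572). Between 12 h and 24 h the BMP4 effect moved by −1.53 ± 0.44, with an unadjusted p = 0.00558 and an adjusted p = 0.602. In untreated explants the step from 12 to 24 h was 1.39 ± 0.31 (adjusted p = 0.262) and the span from 0 to 24 h 1.54 ± 0.36 (adjusted p = 0.0718). With BMP4 the span from 3 to 24 h was 0.01 ± 0.36, with a 95% interval of −0.79 to 0.80. Without untreated 12 h array A the effect across times was −0.004, and without the 12 h pairs −0.42, so its sign rests on the 12 h arrays.

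The dimmer DLX6 probe set had signals of 17.2 to 66.4. At 12 h its pairs were wide apart: 54.8 (A) and 18.4 (B) untreated, and 66.4 (A) and 36.3 (B) with BMP4. Its effect across times was 0.205 ± 0.32 (adjusted p = 0.909), and it correlated with the brighter DLX6 probe set at r = −0.038.

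DLX1 differed between the arms by 1 of its 3 probe sets, which stood above the filter's threshold only on the untreated arrays of 12 and 24 h. The brightest had untreated signals of 14.6 at 0 h, 17.8 at 3 h, 96.2 (A) and 103 (B) at 12 h, and 325 at 24 h. With BMP4 its signals were 8.07 at 3 h, 15.3 (A) and 13.7 (B) at 12 h, and 13.4 at 24 h. The 3 untreated arrays of 12 and 24 h stood apart from all others, and every BMP4 array lay below every cultured untreated one. On the untreated 24 h array the probe set stood at the 73.8th percentile, and on the BMP4 24 h array at the 9.9th.

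This probe set passed the filter on dim signal only through untreated arrays, the 3 of 12 and 24 h. The filter and the difference between the arms are therefore not independent, and its calls are given as a description. The log2 difference across times was −1.66 ± 0.37 (adjusted p = 0.0486, and 0.0548 without the filter). At 24 h it was −3.10 ± 0.54 (adjusted p = 0.0363, and 0.054 without the filter), from 1 array against 1. At 12 h the difference was −1.59 ± 0.38 (adjusted p = 0.133) and at 3 h −0.345 ± 0.54 (adjusted p = 1.0). Since the BMP4 signals lie under the 27.79 added, these sizes are no measured ratios and depend on the amount added: the effect across times was −1.97 with 16 added and −1.16 with 64 added (adjusted p = 0.0559). The call across times was lost without any 1 of the 12 h arrays: untreated A (adjusted p = 0.146) or B (0.125), or BMP4 A (0.132) or B (0.116). It was also lost without the 24 h pair (−1.18, adjusted p = 0.282), and over all alternatives the adjusted p ran from 0.00782 to 0.728. The 24 h call was also lost with 16 added (adjusted p = 0.0542) and without the variance trend (0.201).

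Within untreated explants the log2 difference of this probe set was 3.06 ± 0.54 from 0 to 24 h (adjusted p = 0.0235) and 2.95 ± 0.54 from 3 to 24 h (adjusted p = 0.0339), spans added after the values were seen and open to the same filter. The single steps from 3 to 12 h (1.49 ± 0.47) and 12 to 24 h (1.47 ± 0.47) did not pass the test. With BMP4 the span from 3 to 24 h was 0.20 ± 0.54 (adjusted p = 0.903). From 3 h to 24 h the BMP4 effect moved by −2.75 ± 0.77 on the log2 scale, which did not pass the test (unadjusted p = 0.0048, adjusted p = 0.413).

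The other DLX1 probe sets, annotated to the same transcript accession as each other, did not give this picture. The middle one had untreated signals of 26.1, 24.8, 64.8 (12 h A), 50.6 (12 h B) and 57.1 from 0 to 24 h, and 14.9, 15.3 (A), 15.0 (B) and 57.7 with BMP4 from 3 to 24 h. It was lower with BMP4 at 12 h, as the brightest was, but level with the untreated array at 24 h. Its effect was −0.99 ± 0.40 at 12 h (adjusted p = 0.502), 0.01 ± 0.57 at 24 h and −0.57 ± 0.29 across times (adjusted p = 0.549). The dimmest stayed between 10.9 and 52.8, with an effect across times of 0.18 ± 0.315 (adjusted p = 0.918), the opposite sign. It passed the filter only through BMP4 arrays, 12 h A (47.6) and 24 h (52.8). Its sign and its part in the mean that follows are therefore descriptions. Averaged over the 3 probe sets, DLX1 had an effect across times of −0.68 (adjusted p = 0.258). The brightest correlated with the middle one at r = 0.704 and with the dimmest at r = −0.028 over the 9 arrays.

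DLX3 was dim on all 9 arrays. Its signal was 17.7, 10.6, 10.6 (12 h A), 8.43 (12 h B) and 29.3 untreated from 0 to 24 h, and 24.0, 20.1 (A), 9.99 (B) and 11.4 with BMP4 from 3 to 24 h. It lay between the 4.3th and the 26.2th percentile of its array, and the arms overlapped. Fitted without the filter its effect across times was 0.07 (adjusted p = 0.975). A signal this low does not show whether DLX3 RNA was present.

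**Figure D2:**
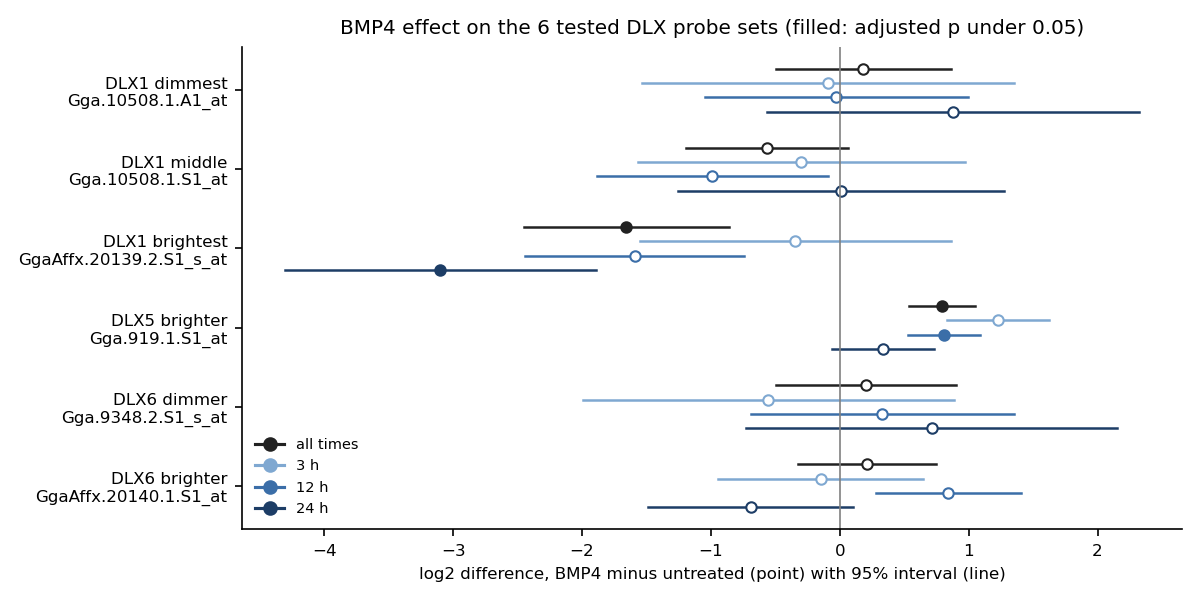
Log2 difference of BMP4-treated minus untreated explants (x) for the 6 tested DLX probe sets (y), across times and at 3, 12 and 24 h; points are estimates, lines 95% intervals, filled points had an adjusted p under 0.05. The brighter DLX5 probe set lies at 1.23, 0.81 and 0.335 at 3, 12 and 24 h, and the brightest DLX1 probe set at −0.345, −1.59 and −3.10.

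Across times, 2 of the 6 tested DLX probe sets were called, DLX5 higher and DLX1 lower, where 1.2% of all tested probe sets were called (0.738% higher and 0.462% lower). At 12 h 1 was called, higher, against 0.614% of all probe sets (0.388% higher and 0.226% lower). At 24 h 1 was called, lower, against 0.72% (0.275% higher and 0.445% lower), and at 3 h none, against 0.0141% called and 1212 probe sets with an unadjusted p under 0.05. These counts are a description, since the 6 probe sets are of 3 genes chosen with earlier results known. In addition, the called DLX1 probe set passed the filter only through untreated arrays, and the dimmest one only through BMP4 arrays. None was called for a change of the BMP4 effect between times by limma, where 0.06% of all probe sets were called for 24 h against 3 h, 0.0247% for 24 h against 12 h and 0.0% for 12 h against 3 h. At an unadjusted p under 0.05 those comparisons held 2023, 1719 and 1340 probe sets. None was called for a step of untreated culture, where 0.328% (0 to 3 h), 0.501% (3 to 12 h) and 0.0388% (12 to 24 h) of all probe sets were, with 2606, 2799 and 2068 at an unadjusted p under 0.05. None was called for a step with BMP4, where 1.33% (3 to 12 h) and 0.688% (12 to 24 h) were, with 3576 and 2957 at an unadjusted p under 0.05. Over the longer untreated spans 2 DLX probe sets were called, of DLX1 and DLX5, where 1.62% (0 to 24 h) and 1.04% (3 to 24 h) of all were. Over the BMP4 span none was, where 4.31% of all were and 5034 had an unadjusted p under 0.05.

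The brightest DLX probe sets moved in different ways over the 9 arrays. DLX5 and DLX6 correlated at r = 0.567, DLX5 and DLX1 at −0.082, and DLX1 and DLX6 at 0.143. The dim DLX5 probe set correlated with DLX1 at 0.833, both with their highest signal on the untreated 24 h array. These points share arrays and groups, and the values are descriptions.

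**Figure D3:**
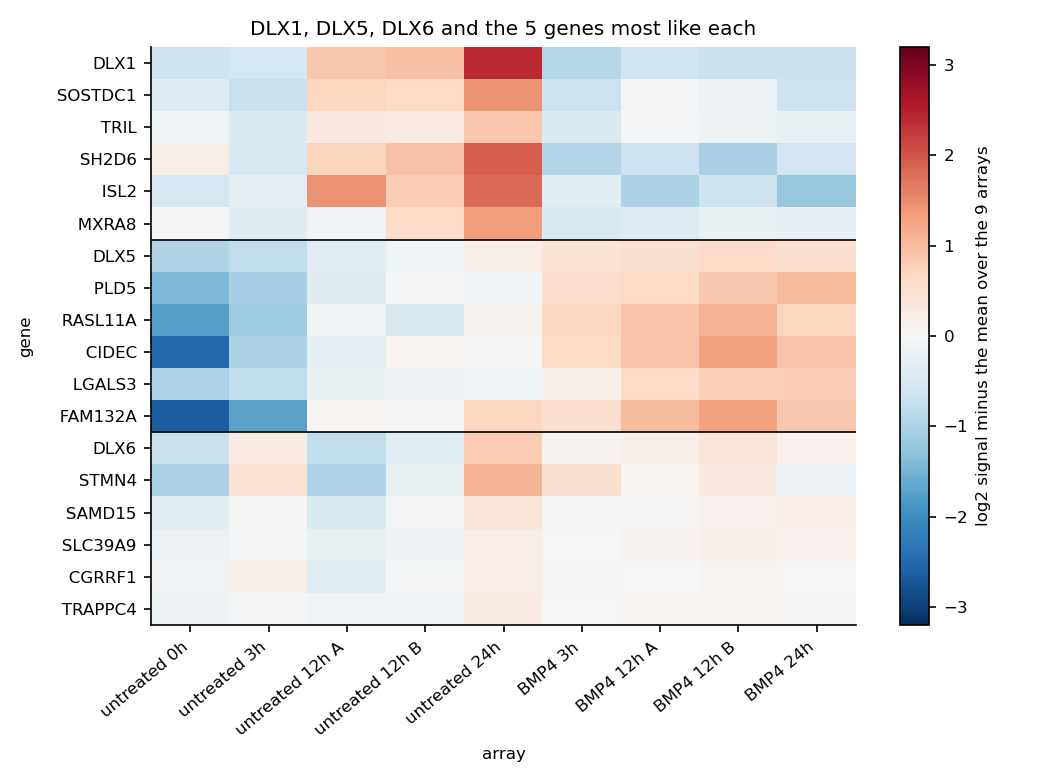
Log2 signal minus its mean over the 9 arrays (colour) for DLX1, DLX5 and DLX6, each through its brightest probe set, and the 5 genes with the highest correlation to each (rows), on every array (columns). The DLX1 group is highest on the untreated 24 h array, the DLX5 group is lowest at 0 h and high on all BMP4 arrays, and the DLX6 group is low at 0 h and on untreated 12 h array A.

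Among 11720 other named genes, those most like DLX5 over the 9 arrays were PLD5 (r = 0.977), the Ras-like protein RASL11A (0.971), the lipid droplet protein CIDEC (0.951), the galectin LGALS3 (0.950) and FAM132A (0.948). By Spearman's rho all 5 stayed among the 9 genes most like it (0.95 to 0.983). LGALS3 had signals of 880 at 0 h, 1011, 1517, 1557 and 1604 in untreated culture, and 1997, 2751, 3018 and 3113 with BMP4, so its arms did not overlap either. Those most like DLX1 were the secreted BMP and Wnt modulator SOSTDC1 (r = 0.956), TRIL (0.955), SH2D6 (0.948), the LIM homeobox factor ISL2 (0.930) and MXRA8 (0.921). Their ranks by Spearman's rho were 31 to 229, and all 5 had their highest signal on the untreated 24 h array, as DLX1 did. SOSTDC1 stood at 1019 there and at 215 on the BMP4 24 h array. Those most like DLX6 were STMN4 (r = 0.951), SAMD15 (0.947), the zinc transporter SLC39A9 (0.921), CGRRF1 (0.914) and TRAPPC4 (0.898). STMN4 ranged from 23.3 to 191, while SLC39A9 lay between 1953 and 2656. For the dim DLX3 signal they were OVOL3 (r = 0.961), FRRS1 (0.890), MT3 (0.885), PIGL (0.884) and TRPV2 (0.861). These r values are descriptions over 9 arrays that share groups. The genes were picked for likeness over these same arrays. Traits shared with DLX5 or DLX1, such as arms that do not overlap or a highest signal on 1 array, follow from that choice.

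None of the measured genes next to the DLX loci, other than DLX5 itself, was called across times. Over all 11721 named genes 1.85% were called, a share at which so few neighbours would seldom hold a call. The absence of calls is therefore only a description. In the RefSeq order of assembly GRCg7b, DLX6 and DLX5 are adjacent on chromosome 2, DLX1 lies on chromosome 7 and DLX3 on chromosome 27. This look at neighbours was added after the values were seen, and took the 3 nearest protein-coding genes with a tested probe set on each side. Beside DLX5 and DLX6, SHFM1 had an effect across times of 0.03 ± 0.14, SDHAF3 0.23 ± 0.12, the neuropeptide gene TAC1 0.03 ± 0.40 and SLC25A13 −0.16 ± 0.10. Beside DLX1, the integrin ITGA6 had −0.35 ± 0.15, METAP1D −0.58 ± 0.23 and the histone acetyltransferase HAT1 −0.18 ± 0.11. Beside DLX3, the integrin ITGA3 had −0.10 ± 0.16 and KAT7 −0.075 ± 0.10. Over all neighbours other than DLX genes, the adjusted p lay between 0.264 (COL1A1, 0.385 ± 0.13) and 0.992.

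**Figure D4:**
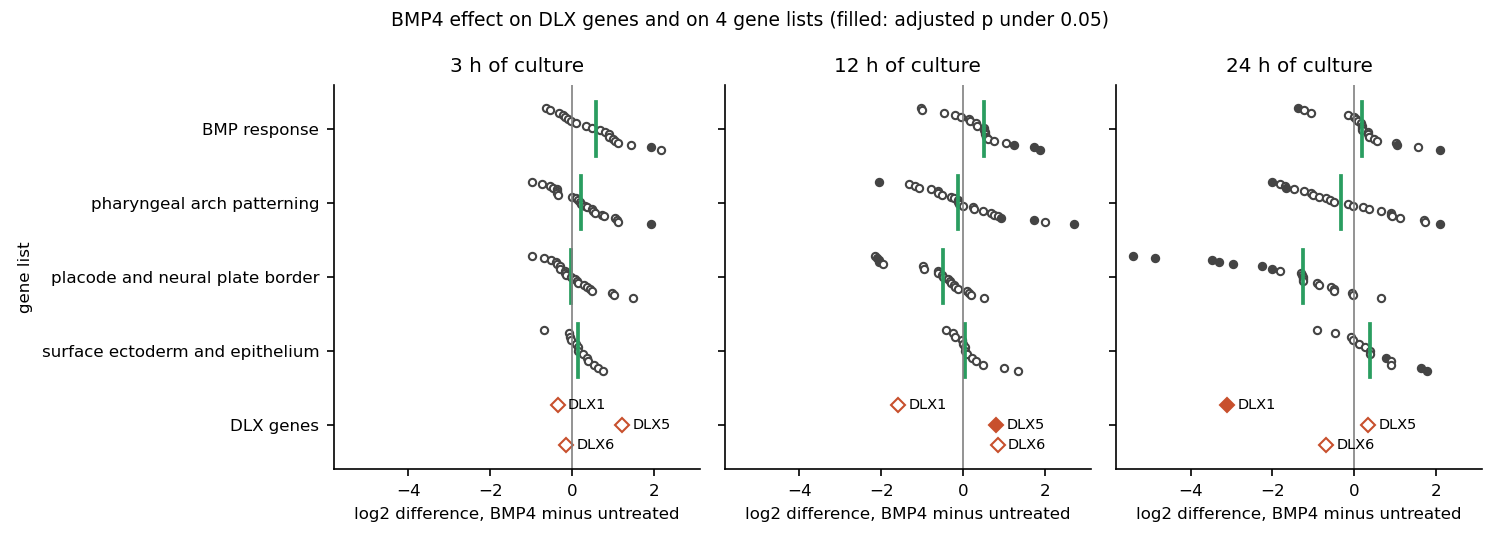
Log2 difference of BMP4-treated minus untreated explants (x) at 3, 12 and 24 h (panels) for the tested members of 4 gene lists and for DLX1, DLX5 and DLX6 (rows); circles are genes, diamonds DLX genes, green bars list medians, and filled marks had an adjusted p under 0.05. The placode list spreads to the left at 24 h, with a median of −1.25, and DLX1 lies within its range.

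A minority of BMP response genes were called higher with BMP4, as DLX5 was. For this list and those below, genes counted as rising or falling are those called. Of 20 tested BMP response genes, 6 rose and none fell across times, with a median log2 difference of 0.48, where 1.85% of 11721 named genes were called and their median was −0.01. The homeobox gene MSX2 rose by 1.87 ± 0.10 (adjusted p = 6.6e-07), the decoy receptor BAMBI by 1.11 ± 0.08, the inhibitory SMAD6 by 0.54 ± 0.07 (adjusted p = 0.00182) and ID4 by 0.56 ± 0.09. ID1 (0.33 ± 0.15), ID3 (0.39 ± 0.11) and MSX1 (0.62 ± 0.18) did not pass. At 24 h, from 1 array against 1, the list median was 0.18 and the Notch target HEY1 was at −1.37 ± 0.17. HEY1 did not pass across times (−0.61 ± 0.15, adjusted p = 0.0862) or at 12 h (−0.47 ± 0.12, adjusted p = 0.151). Side by side at 3 h and 24 h, the effects were 1.92 and 2.10 for MSX2, 1.01 and 0.003 for ID1, and 1.23 and 0.335 for DLX5, and the differences between genes were not tested.

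Of 24 pharyngeal arch patterning genes, among which DLX5 and DLX6 act, 4 rose and 3 fell across times, with a median of −0.13. Over all named genes 1.85% were called, with a median of −0.01. PRRX1, a mesenchymal homeobox factor, rose by 1.02 ± 0.105 (adjusted p = 0.000552), and MSX2 rose as above. GBX2 fell by 1.77 on the log2 scale (± 0.19, adjusted p = 0.000697) and NR2F2 fell by 0.995 (± 0.16, adjusted p = 0.00672). HAND2, a target of DLX5 and DLX6 in the mouse mandibular arch, rose by 0.915 ± 0.175 (adjusted p = 0.0225). The endothelin ligand EDN1 (−0.24 ± 0.25) and its receptor EDNRA (0.55 ± 0.16) did not pass, nor did GSC (0.55 ± 0.27).

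A few placode and neural plate border genes were called lower with BMP4. Across times 1.85% of all named genes were called. Of 21 tested, none rose and 3 fell across times (median −0.46), and 7 fell at 24 h (median −1.25), where 1.21% of all named genes were called. Those called across times were GBX2, the transcriptional cofactor EYA2 (−1.97 ± 0.35, adjusted p = 0.0139) and the progenitor factor SOX3 (−1.22 ± 0.23, adjusted p = 0.0212). TFAP2A (−0.44 ± 0.19), PAX6 (−2.455 ± 0.55, adjusted p = 0.0513) and GATA3 (−0.19 ± 0.28) did not pass across times. At 12 h alone PAX6 fell (−2.06 ± 0.31, adjusted p = 0.0187). At 24 h, from 1 array against 1, the effects were −5.41 for PAX6, −4.87 for FOXI2, −3.31 for SIX3 and −2.95 for TFAP2B. PAX6 (6.93) and SIX3 (9.02) lay under the amount added on the BMP4 24 h array, so those sizes are no measured ratios. The summed signal of the list was 32982 to 41860 in cultured untreated arrays and 12923 to 35991 with BMP4, lowest on the BMP4 24 h array. That of 11 neural tissue markers was 5716 to 6239 untreated and 2854 to 5860 with BMP4. The 2 lists share SOX2, SOX3 and PAX6, so their sums are not independent. Across times HES5 (−1.81 ± 0.26, adjusted p = 0.00449) and SOX3 fell among the neural markers (median −0.41). STMN2 (0.42 ± 0.24), NCAM1 (0.45 ± 0.35) and DCX (−0.11 ± 0.115) did not pass. The part of these cell types in the DLX1 difference was not tested.

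Among surface ectoderm and epithelium genes some keratins were called higher with BMP4. Across times 1.85% of all named genes were called. Of 13 tested, 1 rose across times, the gene annotated KRT13, taken by synonym for KRT15 (1.13 ± 0.18, adjusted p = 0.00639), with a list median of 0.245. At 24 h 3 rose (median 0.38), against 1.21% of named genes called: KRT14 (1.63 ± 0.26, adjusted p = 0.0247), KRT13 (1.775 ± 0.31, 0.036) and KRT24, taken by synonym for KRT19 (0.78 ± 0.14, 0.0422). The keratin KRT5 (0.245 ± 0.25), EPCAM (0.04 ± 0.06), CDH1 (0.32 ± 0.12) and TP63 (−0.39 ± 0.24) did not pass across times. The 24 h values are from 1 array against 1. The summed signal was 68147 to 83121 in cultured untreated arrays and 72815 to 106409 with BMP4, and its part in the DLX5 difference was not tested. Among 9 neural crest markers, where DLX5 is also expressed, none was called across times (median −0.14), and the summed signal was 4554 to 12280 untreated and 5128 to 10807 with BMP4.

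Among the other lists, that of splanchnic mesoderm and anterior heart field held the most calls across times. Across times 1.85% of 11721 named genes were called, and their median was −0.01. Of 8 tested genes of the forebrain GABA neuron program, in which DLX1 and DLX5 act, none was called across times, with a median of 0.16. GAD1, the GABA-synthesizing enzyme, was at 0.35 ± 0.255. NPY, a neuropeptide of that list, did not pass across times (−1.70 ± 0.455, adjusted p = 0.114) but fell at 12 h (−1.155 ± 0.175, adjusted p = 0.0191). At 24 h, from 1 array against 1, its log2 difference was −4.375 and the list median −0.125. Other members went both ways there, with NKX2-1 at 2.56, GAD1 at 1.11 and SLC32A1 at −0.42. SOX9 (1.71 ± 0.36, adjusted p = 0.0378) rose among 10 cartilage and bone genes (median 0.23), where RUNX2, the osteoblast regulator, was at 0.20 ± 0.29. Of 17 splanchnic mesoderm and anterior heart field genes 3 rose and 2 fell across times (median −0.155). Those that rose were GATA5 (0.89 ± 0.09, adjusted p = 0.000362), ISL1 (0.53 ± 0.09, adjusted p = 0.013) and HAND2, given above. Those that fell were FOXC2 (−1.165 ± 0.23, adjusted p = 0.0242) and FGF8 (−2.08 ± 0.43, adjusted p = 0.0323). HHEX (1.09 ± 0.14, adjusted p = 0.00235) rose among 10 pharyngeal endoderm genes (median 0.305). Of that list PAX9 (−0.76 ± 0.24), SHH (−0.23 ± 0.32) and NKX2-1 (1.52 ± 0.34) did not pass across times.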

How the data were processed

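The authors deposited 1 linear signal intensity per probe set and array, computed with MAS5 per the submitters' processing notes. The version and scaling target are not given in the sources used here. The 2% trimmed means of the 9 arrays were 503.66 to 504.72, so the intensity was used as deposited. There are no detection calls, and the number of arrays limits the precision.

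Before taking log2, 27.79 was added to each signal (the 25th percentile over all signals). Control probe sets (96) were left out, and 28329 probe sets passed the filter. limma 3.58.1 in R 4.3.3 was used with a variance trend and Benjamini-Hochberg adjustment, two-sided. The effect across times was fitted on the 8 cultured arrays, with a term for BMP4 and one for each time (4 residual degrees of freedom). All other comparisons came from 7 group means over 9 arrays (2 residual degrees of freedom, all from 12 h), which takes the spread of a single array to be that seen at 12 h. The fit was also run on simulated data with independent noise and an equal BMP4 effect at every time. That run gave all arrays the spread seen at 12 h, so it could not test this assumption.

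Gene symbols came from the platform annotation and were updated through RefSeq (GRCg7b): 27168 carry 1 symbol, 177 several and 11094 none. A gene of a list is represented by its tested probe set with the highest mean signal. Members and lists were chosen with earlier results of these data known. Named genes are all DLX probe sets, the 5 genes most like each DLX gene, and from each list up to 4 called members by adjusted p and up to 3 others. HAND2, HEY1, KRT5, KRT14, KRT24, FGF8, FOXI2, SIX3, TFAP2B, STMN2, NCAM1, DCX, PAX9, SHH and NKX2-1 were chosen after values were seen. So were the 12 h and 24 h values of PAX6 and NPY, the 24 h values of NKX2-1, GAD1 and SLC32A1, and the marker levels. Alternatives changed the amount added, filter, scaling, variance trend, threshold, arrays, weight of times and unit of the fit.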

Additional observations from a re-analysis of the deposited data

How the results depend on the processing

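Scaling by quantile normalization left every DLX count of calls as it was, and gave effects across times of 0.80 for DLX5 and −1.65 for DLX1. Across times the 2 DLX calls became 1 with 64 added, without the filter, with the 60th percentile filter (where DLX1 was not tested), with a replicate block, without the 24 h pair and without any 1 of the 12 h arrays (1 to 1). They became 0 without the variance trend and without the 12 h pairs. By gene, 2 DLX genes became 1 with the mean of their probe sets, and 217 named genes became 130. At 12 h the 1 DLX call became 0 without the filter or the variance trend, 0 to 1 leaving out 1 array, and 3 with a replicate block. At 24 h the 1 call became 0 with 16 added, without the filter, with the 60th percentile filter and without the trend. At 3 h the 0 calls became 1 with a replicate block and 0 to 1 leaving out 1 array. With a replicate block 2 DLX changes of effect and 4 culture steps were called, against 0, and the longer spans gave 4.

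Over all probe sets, the 340 calls across times became 4 without the trend, 591, 9 and 146 without the 3 h pair, the 12 h pairs and the 24 h pair, 542 at an adjusted p under 0.10, and 147 to 218 leaving out 1 array. The 174 at 12 h became 86 without the filter, 0 without the trend, 1106 with a replicate block, 323 at 0.10 and 99 to 187 leaving out 1 array. The 204 at 24 h became 80, 0, 1367, 406 and 360 to 367 in the same order, and the 4 at 3 h became 0 without the trend, 115 with a replicate block and 8 to 11 leaving out 1 array. Without the trend, 2339 probe sets at 12 h, 2800 at 24 h and 1564 at 3 h had an unadjusted p under 0.05. The letters A and B share no stated origin: the A minus B differences of the arms correlated at 0.126, so the block is no paired result.

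Signs turned for differences that were not called: the dimmest DLX1 probe set across times without the 24 h pair (−0.048), the brighter DLX6 probe set across times without the 12 h pairs (−0.42) and leaving out 1 array (−0.004 to 0.175), and at 12 h, leaving out 1 array, the dimmest DLX1 probe set (−0.387 to 0.336) and the dimmer DLX6 probe set (−0.088 to 0.749). The cause was not tested.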
